A study of Mus musculus with 12 samples.

Results

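Macrophages live in every organ, and 33 genes that mark them, or that they use to sense and digest their surroundings, are described here in the brain and the liver of aged mice exposed to periodic heat stress. The genes were given as a list of symbols, and all 33 were found among the 25239 gene rows of the count table. Of these, 9 belong to the lineage or are shared by most macrophages, 4 mark microglia, 5 mark Kupffer cells and other resident macrophages, 5 are adaptors and receptors that signal through ITAM motifs, 4 recognise microbial patterns, and 6 are lysosomal proteins, proteases and other effectors.

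Microglia are the resident macrophages of the brain, and Kupffer cells are those lining the sinusoids of the liver. Both depend on signalling through the receptor CSF1R and on the transcription factor PU.1, the product of Spi1. They clear debris and microbes, and on tissue damage they are known to raise phagocytic receptors such as TREM2 and CLEC7A and lysosomal proteins such as CD68.

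All groups were male C57BL6/J wild-type mice of 24 months. The heat stress (HS) group was kept at 40 °C and a relative humidity of 60% for 3 hours a day over 15 days, and the control (CO) group was not exposed. RNA from frozen pieces of brain or liver was sequenced from poly(A)-selected libraries, with 3 mice per group and tissue and 12 libraries in all. The region of the brain from which a piece was cut is not given in the sources used here. Each library is bulk RNA, so fewer cells of a type and less RNA per cell cannot be told apart.

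Library totals ranged from 10466198 to 15609040 counts. In brain, the CO libraries held 11889432 to 14597197 counts and the HS libraries 10552686 to 11147095. In liver, transcripts of 8 skeletal muscle genes summed to 385 CPM (counts scaled to the library total) in CO replicate 1 and to 2200 in HS replicate 2, against 1.03 to 7.1 in the other liver libraries. Levels are given as CPM scaled by the trimmed mean of M values (TMM) within a tissue, unless said otherwise, and levels of different genes are compared only as TPM, which divides by transcript length.

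Spi1 itself was measured in both tissues. The brain CO mice gave 3.91, 3.49 and 3.89 CPM and the HS mice 2.86, 5.11 and 4.72, and the groups overlapped. In liver the CO mice gave 2.71, 1.88 and 1.77 CPM and the HS mice 3.28, 3.41 and 2.60, of which the last lay under the highest CO value. The letters GAGGAA, the core of the site that PU.1 prefers, were searched on both strands of RefSeq promoters (GRCm38.p6, 250 bases before to 50 bases after a start site). They occurred in 14 of the 24 members with a promoter entry (58.3%) and in 31.3% of all 27025 genes. The longer GAGGAAGT, which contains it, was found for 2 members (8.33%) against 3.69% of all genes. No entry was found for Csf1r, Spi1, Adgre1, Tmem119, Gpr34, Tyrobp, Cd14, Tlr4 and Tspo. A match of letters is a description of the sequence and not a binding site.

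The 250 bases before the start site are shown for 5 members whose HS and CO values did not overlap in brain (Aif1, Itgam, Clec7a) or in liver (Marco, Trem2), chosen after their values were seen. They lie at chr17:35176053-35176302 on the minus strand for Aif1, chr7:128062390-128062639 on the plus strand for Itgam, chr6:129472780-129473029 on the minus strand for Clec7a, chr1:120505025-120505274 on the minus strand for Marco and chr17:48346151-48346400 on the plus strand for Trem2. Capitals mark the GAGGAA letters, or TTCCTC where the match is on the other strand.
Aif1: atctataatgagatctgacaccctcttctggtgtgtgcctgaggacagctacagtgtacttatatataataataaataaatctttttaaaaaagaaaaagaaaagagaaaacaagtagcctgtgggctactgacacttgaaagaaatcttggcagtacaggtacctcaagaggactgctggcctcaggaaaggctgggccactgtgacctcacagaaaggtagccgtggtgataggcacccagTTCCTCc
Itgam: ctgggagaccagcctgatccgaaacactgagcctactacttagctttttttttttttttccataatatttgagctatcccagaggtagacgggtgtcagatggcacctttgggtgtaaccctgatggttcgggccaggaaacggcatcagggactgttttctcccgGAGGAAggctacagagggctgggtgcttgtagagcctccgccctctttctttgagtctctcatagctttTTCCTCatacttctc
Clec7a: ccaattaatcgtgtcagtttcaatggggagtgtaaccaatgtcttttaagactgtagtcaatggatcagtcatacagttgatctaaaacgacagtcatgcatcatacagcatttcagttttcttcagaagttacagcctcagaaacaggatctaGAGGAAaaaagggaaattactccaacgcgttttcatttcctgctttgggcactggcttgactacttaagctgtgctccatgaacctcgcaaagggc
Marco: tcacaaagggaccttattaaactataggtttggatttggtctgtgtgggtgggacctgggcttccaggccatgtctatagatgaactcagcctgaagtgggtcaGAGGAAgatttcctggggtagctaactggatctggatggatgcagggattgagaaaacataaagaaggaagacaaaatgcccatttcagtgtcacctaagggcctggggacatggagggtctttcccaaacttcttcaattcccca
Trem2: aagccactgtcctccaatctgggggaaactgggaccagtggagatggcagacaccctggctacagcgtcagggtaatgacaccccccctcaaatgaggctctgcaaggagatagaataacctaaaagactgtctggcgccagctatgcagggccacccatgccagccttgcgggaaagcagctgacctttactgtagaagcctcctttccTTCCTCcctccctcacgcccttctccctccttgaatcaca
In Aif1 the match began 7 bases before the start site, in Trem2 40, in Clec7a 96 and in Marco 146. Itgam held 3 matches in its 300 bases, of which the first began 84 bases before the start, the second 15 bases before it and the third, not shown, 32 bases after it. P2ry12 and Itgax, which also had no overlap between groups in a tissue, held no such letters in this window.

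The control tissues were compared first, as a check that the 2 macrophage types were captured. Of all genes tested, 64.5% were past an adjusted p of 0.05 and a log2 fold change of 1, with 36.7% higher in brain and 27.8% higher in liver. Among the members, 19 of 31 tested passed, 8 higher in brain and 11 higher in liver, which is a share near that of all genes. The direction followed the cell type markers. All 4 microglia markers were higher in control brain, namely the purinergic receptor gene P2ry12 (27.8-fold), the membrane protein gene Tmem119 (22.7-fold), the lectin gene Siglech (209 to 322 counts a library against 2 to 6) and the receptor gene Gpr34 (202 to 264 against 0 to 4), with adjusted p from 6.08e-07 to 6.02e-06 in edgeR's quasi-likelihood test, Benjamini-Hochberg adjusted. All 5 Kupffer cell and resident macrophage markers were higher in control liver.

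CPM of the control tissues were here scaled over the 6 control libraries together, and so differ from the CPM scaled within a tissue that are given for heat stress. Clec4f, the lectin gene that defines mouse Kupffer cells, had 0 counts in each control brain library and 87.9 ± 15.1 CPM (SD, n = 3) in control liver, at least 544-fold higher when brain is set at a floor of 3 counts per library. Vsig4, a complement receptor gene, likewise had 0 counts in brain and was at least 187-fold higher in liver. The phosphatidylserine receptor gene Timd4 and the scavenger receptor gene Marco had at most 3 and 2 counts in a control brain library, against 7.05 ± 3.02 and 8.01 ± 3.98 CPM in liver. The haemoglobin scavenger receptor gene Cd163 was found in both tissues, 13.7-fold higher in liver. The other members higher in brain were Itgam (13.2-fold), Trem2 (9.73-fold), Csf1r (2.04-fold) and Ctss (2.02-fold). The other members higher in liver were Tspo (18.1-fold), Lyz2 (6.53-fold), Lgals3 (6.44-fold), Clec7a (5.82-fold), Ptprc (3.02-fold) and Mpeg1 (2.29-fold).

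Levels per transcript length put different members at the top in the 2 tissues. In control brain the cysteine protease gene Ctss was highest, at 227 ± 31.0 TPM (SD, n = 3), followed by the adaptor gene Tyrobp at 142 ± 20.7. Csf1r at 56.4 ± 12.9 TPM, P2ry12 at 55.5 ± 11.8 and Trem2 at 48.9 ± 8.84 came next and lay within the spread of each other. In control liver Tspo was highest at 138 ± 18.9 TPM, followed by the lysozyme gene Lyz2 at 82.7 ± 32.6. Clec4f at 42.5 ± 8.93 TPM and Tyrobp at 36.2 ± 15.0 did not differ beyond their spread. Tspo encodes a mitochondrial outer membrane protein that is not confined to macrophages. Itgax, Gpr34, Siglech, Tmem119, P2ry12, Itgam, Mmp12 and Tlr2 were all under 1 TPM in control liver.

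**Figure D1:**
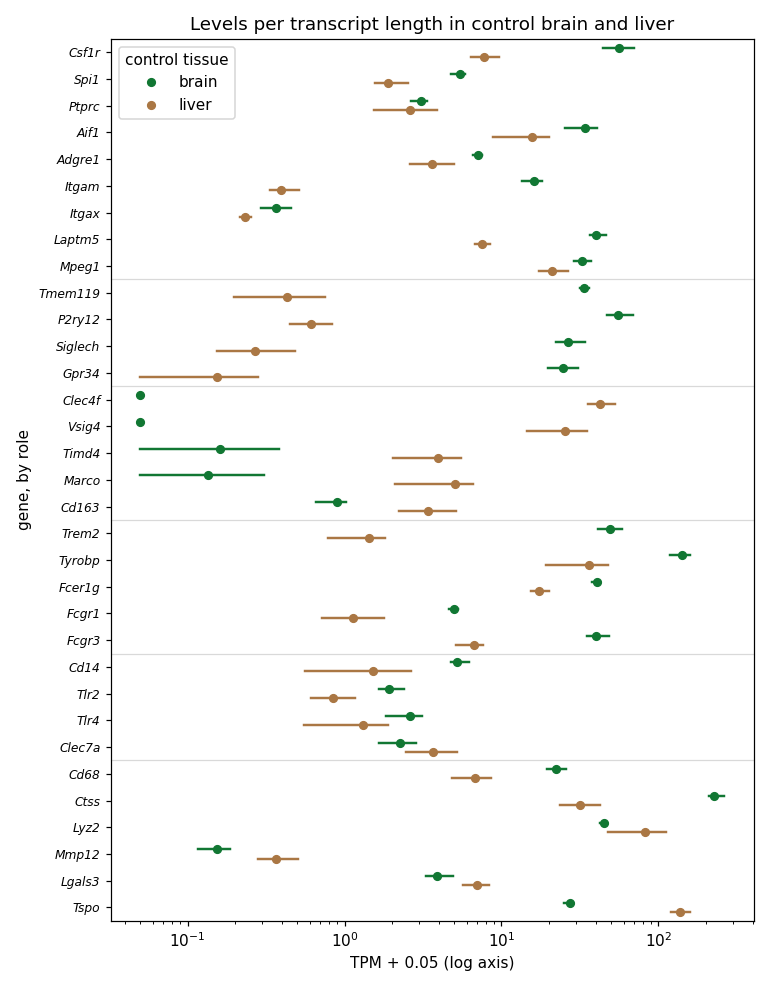
Levels of the 33 members in control brain (green) and control liver (brown), as TPM plus an offset of 0.05 on a log axis; points are means of 3 mice and lines run from the lowest to the highest mouse, and grey lines separate the roles. The microglia markers Tmem119, P2ry12, Siglech and Gpr34 sit to the right in brain, and Clec4f and Vsig4, at 0 in brain, sit to the right in liver.

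Heat stress was then compared with control in brain. The microglia gene Gpr34, the actin-binding protein gene Aif1 (which encodes IBA1), Tyrobp, Clec7a and P2ry12 were higher in every HS brain than in every CO brain, by 1.37- to 1.83-fold, and Csf1r, Itgam and Laptm5 were lower in every HS brain, at 0.676 to 0.804 of the CO level. None passed the adjusted threshold in edgeR. Of 27 members with enough counts to test, 0 had an adjusted p under 0.05 (smallest 0.17) in edgeR's quasi-likelihood test, Benjamini-Hochberg adjusted, as had 0% of all 14806 genes. At an unadjusted p under 0.05 there were 8 members, 5 higher and 3 lower, against 20.1% of all genes. The 5 members higher without overlap compare with 12.9% of all genes, and the 3 lower with 12%. By DESeq2, 4 members passed (Gpr34, Aif1, Tyrobp and Csf1r) and 3.71% of all genes did. The median log2 fold change of the members was 0.17, with 19 above 0 and 8 below, and the median of all genes was within 0.01 of 0. Itgax, Clec4f, Vsig4, Timd4, Marco and Mmp12 were too low in brain to test, and of these Mmp12, at 1 to 2 counts in CO and 3 to 4 in HS, did not overlap either but is at the limit of what the depth can show.

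Among the 9 lineage genes, 8 were tested in brain, and their log2 fold changes lay on both sides of 0. Csf1r, the receptor for the macrophage growth factors CSF1 and IL-34, gave 110, 93.6 and 68.6 CPM in the CO mice and 58.2, 65.7 and 60.5 in the HS mice. All HS values lay under the lowest CO value, and the log2 fold change was -0.56 (SE 0.16, adjusted p 0.17). Itgam (chr7:128062640-128118491), the integrin chain CD11b, gave 28.3, 28.4 and 20.7 CPM in CO and 16.0, 19.3 and 19.5 in HS. The highest HS mouse was just under the lowest CO mouse, and the log2 fold change was -0.50 (SE 0.16, adjusted p 0.172). Laptm5 (chr4:130913125-130936141), a lysosomal membrane protein of blood cells, gave 40.5, 34.2 and 31.2 CPM in CO and 25.7, 29.2 and 30.4 in HS. The groups were again separated by a narrow gap, with a log2 fold change of -0.31 (SE 0.13, adjusted p 0.234). Exons of Csf1r overlap those of Hmgxb3 on the opposite strand, and exons of Itgam overlap those of Gm49368 on the same strand, so that reads there may be shared.

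Aif1 (chr17:35170991-35176068) was higher instead. The CO mice gave 7.40, 12.8 and 10.5 CPM and the HS mice 14.6, 21.0 and 16.7, all above the highest CO value. The log2 fold change was 0.77 (SE 0.22, adjusted p 0.17). The remaining lineage genes overlapped between groups, with log2 fold changes of 0.28 for Ptprc, which encodes CD45, 0.17 for Spi1, 0.06 for Adgre1, which encodes F4/80, and 0.01 for the pore-forming protein gene Mpeg1.

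The 4 microglia markers had a median log2 fold change of 0.44, and 2 of them did not overlap. Gpr34 (chrX:13632089-13640858), a lysophosphatidylserine receptor, gave 13.8, 23.0 and 16.5 CPM in CO and 32.5, 39.0 and 26.0 in HS. Every HS mouse was above every CO mouse, and the log2 fold change of 0.87 (SE 0.21, adjusted p 0.17) was the largest of the members tested in brain. P2ry12 (chr3:59216272-59262871), the receptor by which microglia sense ADP, gave 36.7, 58.3 and 39.3 CPM in CO and 59.3, 66.5 and 58.4 in HS. Its lowest HS mouse lay just above CO replicate 2, and the log2 fold change was 0.46 (SE 0.17, adjusted p 0.206). Exons of P2ry12 overlap Med12l on the opposite strand. Siglech had a log2 fold change of 0.42 and overlapped between groups, as did Tmem119 at -0.04. The summed level of the 4 markers was 92.1, 139 and 97.0 CPM in CO and 138, 166 and 137 in HS.

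Of the 5 ITAM adaptors and receptors, Tyrobp was the one whose groups separated in brain. Tyrobp (chr7:30413760-30417585), the adaptor through which TREM2 signals, gave 23.7, 34.1 and 29.1 CPM in CO and 39.4, 52.6 and 40.0 in HS. All HS mice were above all CO mice, with a log2 fold change of 0.61 (SE 0.17, adjusted p 0.17). Its receptor gene Trem2 had a log2 fold change of 0.24 with overlapping groups, and the Fc receptor genes Fcgr3, Fcer1g and Fcgr1 had 0.26, 0.09 and -0.00.

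The 4 pattern recognition genes were low in brain. Clec7a (chr6:129461591-129472779), which encodes the beta-glucan receptor dectin-1, gave 1.23, 1.83 and 2.10 CPM in CO and 3.60, 3.13 and 2.36 in HS, from 18 to 39 counts a library. The groups did not overlap, with a log2 fold change of 0.82 (SE 0.31, adjusted p 0.204). The Toll-like receptor genes Tlr2 and Tlr4 had log2 fold changes of 0.56 and 0.55 and the lipopolysaccharide co-receptor gene Cd14 had 0.10, all with overlap.

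None of the 5 lysosomal and effector genes tested in brain separated the groups. Cd68, the lysosomal glycoprotein commonly stained in macrophages, gave 10.6, 9.60 and 7.93 CPM in CO and 8.03, 10.0 and 10.2 in HS. The groups were interleaved, and the log2 fold change was 0.00 (SE 0.18, adjusted p 0.993). Tspo, whose protein the study stained in brain, gave 6.99, 8.64 and 7.93 CPM in CO and 6.46, 10.3 and 6.04 in HS. The HS mice lay on both sides of the CO mice, with a log2 fold change of -0.04 (SE 0.24, adjusted p 0.936). Lyz2 gave 20.8, 21.8 and 18.5 CPM in CO and 25.7, 51.5 and 18.3 in HS, with a log2 fold change of 0.65 (SE 0.32, adjusted p 0.29). HS replicate 2 stood far above the other brains. Reads of Lyz2 may be shared with its near-identical neighbour Lyz1. Ctss had a log2 fold change of 0.23 and Lgals3, which encodes galectin-3, had -0.04.

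**Figure D2:**
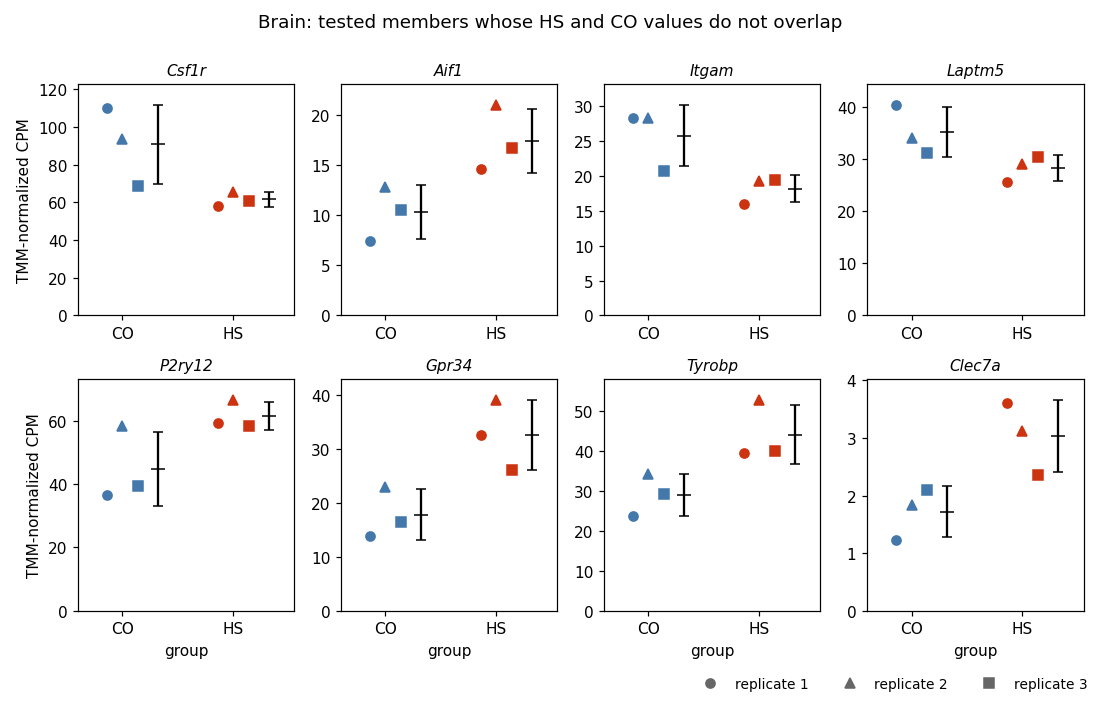
TMM-normalized CPM of the 8 tested members whose HS and CO brains did not overlap, with a symbol for each replicate and the mean ± SD of 3 mice in black. Csf1r, Itgam and Laptm5 are lower in all HS brains, and Aif1, P2ry12, Gpr34, Tyrobp and Clec7a are higher, with the gap narrowest for P2ry12 and Laptm5.

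These counts depended on single libraries. HS replicate 2 was the highest brain library for 16 of the 27 members (59.3%), while it was the highest for 21.9% of all genes. Without it, the median of the members was 0.05. Without CO replicate 2, 11 members were higher without overlap, and 13 had an unadjusted p under 0.05. Groups of 2 and 3 separate more easily, and the shares of all genes were then 23.4% and 26.9%. Without CO replicate 1, 5 members had an unadjusted p under 0.05, against 11% of all genes. Neutrophil genes summed to 37.5 CPM in HS replicate 2 and to 6.86 to 13.4 in the other brain libraries. Their defining marker Ly6g is listed at 0 in every library, as are 4 of 5 erythrocyte genes, so that a 0 here may be a gene that was not counted. Lyz2 and Itgam are also expressed by neutrophils. Monocyte genes summed to 4.13 to 7.07 CPM in CO brains and 6.99 to 12.8 in HS brains. Of 7 monocyte genes 2 were tested, and 1 was higher in all HS brains, against 12.9% of all genes. It was S100a4, at a log2 fold change of 0.69 (adjusted p 0.237), while Itgal overlapped at 0.25. T and NK cell genes summed to 4.21 to 5.76 CPM in CO brains and 6.99 to 19.1 in HS brains, most of it from Cd4 in each library. Cd4 alone of them was tested, at 4.59, 5.50 and 3.16 CPM in CO and 13.6, 5.37 and 18.7 in HS, with overlap (adjusted p 0.17). The part of these cells in the members' levels was not tested.

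Fold changes in brain varied with transcript length and base composition. With all genes sorted into 5 bins of equal size, their median went from 0.22 in the bin of the shortest transcripts to -0.17 in that of the longest, and from 0.17 in the bin lowest in GC to -0.11 in the highest. Across the 27 members, Spearman's rho of the fold change was -0.30 with length and -0.51 with GC, and across all genes it was -0.40 and -0.29, where genes share the same libraries and are not independent. Long transcripts included Csf1r (4701 bases, -0.56) and Tlr4 (4077 bases, 0.55), and short ones Tyrobp (597 bases, 0.61) and Fcer1g (683 bases, 0.09). With each library corrected for both properties the median of the members was 0.04. Then 4 members were higher without overlap and 0 were lower, against 9.95% and 7.52% of all genes. The log2 fold change was then 0.40 for Gpr34, 0.09 for P2ry12, 0.35 for Tyrobp, 0.52 for Aif1, 0.49 for Clec7a and -0.33 for Csf1r.

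Further microglia genes outside the members gave no such separation. Of 13 tested, among them Cx3cr1, Sall1 and the complement C1q chains, 0 separated the groups, and their median log2 fold change was -0.06. Their log2 fold changes lay on both sides of 0, from -0.44 for Olfml3 to 0.24 for Cd33. Of all genes tested in brain, 12.9% were higher and 12% lower without overlap. Of 9 tested genes known from disease-associated microglia, 0 were higher and 1, the lysosomal protease gene Ctsd, was lower without overlap, with a median of 0.00. Of 24 tested ligands, subunits and other partners of the members, 0 passed the adjusted threshold, and the median was -0.04. Without overlap 2 were lower and 1 was higher, neither count above those shares of all genes. Those lower were Itgb2, the integrin chain that pairs with CD11b, at a log2 fold change of -0.58 (adjusted p 0.184), and Csf1, a ligand of CSF1R, at -0.20. The higher one was Cyba, a subunit of the phagocyte oxidase, at 0.42 (adjusted p 0.246). Of 5 endothelial genes, 0 passed the adjusted threshold and 4 were lower without overlap, against 12% of all genes, with a median of -1.05. Their sum was 103 to 206 CPM in CO and 66.8 to 85.4 in HS. The sum of choroid plexus genes was 1240 to 2460 CPM in CO and 257 to 1120 in HS. The part of a different cell mixture in the members' values was not tested.

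In liver, most members were higher in the HS group on average, and 1 HS mouse was the highest for most of them. Itgax and Marco were higher in every HS liver than in every CO liver, by 3.26- and 3.54-fold, as were Mmp12 (2.00-fold), Trem2 (1.51-fold), Cd68 (1.41-fold) and Laptm5 (1.20-fold). Itgax had 5 to 6 counts in the CO livers and Mmp12 had 7 to 10. Both had enough counts to test only because of the HS livers, as had Trem2, with 6 to 16 counts in the CO livers. The filter thus in part decided that Itgax, Mmp12 and Trem2 are counted here. Of 30 members tested, 0 had an adjusted p under 0.05 (smallest 0.408) in edgeR's quasi-likelihood test, Benjamini-Hochberg adjusted, as had 0% of all 12296 genes, and 0 passed by DESeq2, which called 0.537% of all genes. At an unadjusted p under 0.05 there were 4 members, all higher, against 5.84% of all genes. The 6 members higher without overlap compare with 5.38% of all genes, and 0 were lower, against 5.73%. Itgax, Mmp12 and Trem2 are among these 6, and Itgax and Mmp12 also among the 4 at an unadjusted p under 0.05. The median log2 fold change of the members was 0.40, with 29 of 30 above 0, and the median of all genes was 0.01. After the length and GC correction 2 members were higher without overlap and 1 was lower, against 6.09% and 9.01% of all genes. Tmem119, Siglech and Gpr34 were too low in liver to test.

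HS replicate 1 was the highest liver library for 24 of the 30 members (80%), against 13.4% of all genes, and CO replicate 1 was the lowest for 20 (66.7%), against 21.3%. Without HS replicate 1 the median of the members was 0.00, with 15 above 0. Then 1 member had an unadjusted p under 0.05, against 6.01% of all genes. Without CO replicate 1 the median was 0.20, with 22 above 0. Without CO replicate 3, 10 members were higher without overlap, against 10.3% of all genes in that setting. The columns of CO replicate 2, HS replicate 1 and HS replicate 3 carry a suffix whose meaning is not given, and with it as a covariate the median was 0.32, with 25 above 0. CO replicate 1 and HS replicate 2 are the libraries with skeletal muscle transcripts, and with both left out the median was 0.29, with 26 above 0. HS replicate 1 held 3.28 CPM of those muscle genes. CO replicate 1 was also the highest liver library for brain genes. Its neuron genes summed to 30.2 CPM, against at most 18.5 in the other livers, and its oligodendrocyte genes to 42.6, against at most 21.5. The part of these transcripts in its low member levels was not tested.

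**Figure D3:**
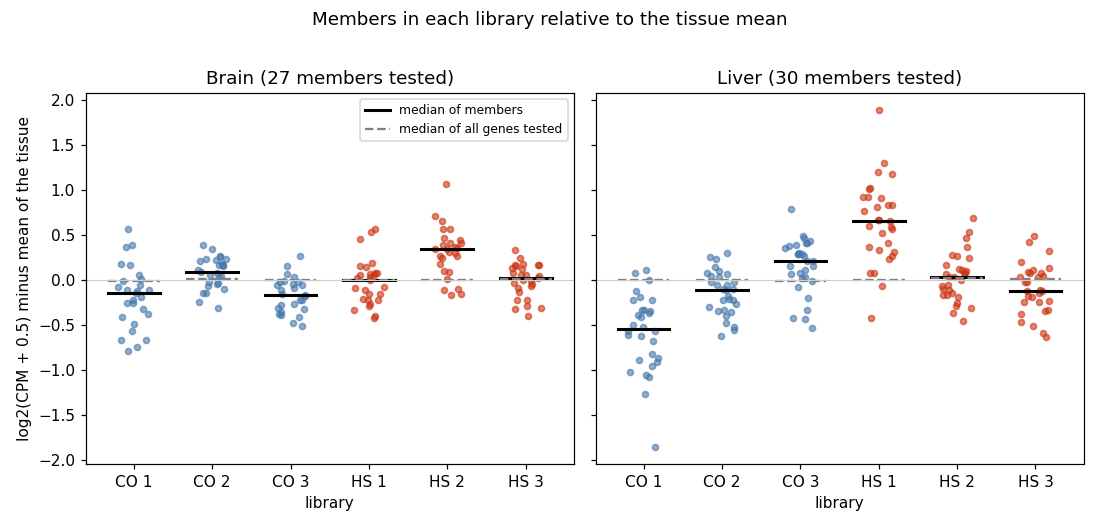
Level of each tested member in each library, as log2(CPM + 0.5) minus its mean over the 6 libraries of the tissue; black lines are medians of the members and dashed grey lines medians of all genes tested. In liver the median was 0.65 in HS replicate 1 and -0.55 in CO replicate 1, and in brain the highest was 0.34 in HS replicate 2.

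All 9 lineage genes were tested in liver, and all had log2 fold changes above 0, with a median of 0.43. Itgax (chr7:128129547-128150657), the integrin chain CD11c of dendritic cells and of lipid-associated macrophages, gave 0.387, 0.408 and 0.466 CPM in CO and 1.49, 1.39 and 1.26 in HS, from 5 to 20 counts a library. The HS mice were close together and well above all CO mice, with a log2 fold change of 1.71 (SE 0.39, adjusted p 0.408). Laptm5 gave 10.2, 10.6 and 12.3 CPM in CO and 12.8, 13.7 and 13.2 in HS. The groups were separated by a narrow gap, with a log2 fold change of 0.26 (SE 0.18, adjusted p 0.936). The other 7 had overlapping groups, and their log2 fold changes ran from 0.28 for Aif1 to 0.61 for Adgre1.

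Of the 5 Kupffer cell and resident macrophage markers, Marco was the one whose groups separated. Marco (chr1:120474538-120505024) gave 2.13, 7.42 and 7.08 CPM in CO and 34.8, 15.0 and 8.36 in HS. The lowest HS mouse lay just above the CO mice and the highest well above them, with a log2 fold change of 1.83 (SE 0.60, adjusted p 0.743), and of 1.07 without HS replicate 1. Clec4f gave 47.3, 59.0 and 73.2 CPM in CO and 71.7, 53.1 and 58.9 in HS. The groups were interleaved, and its log2 fold change was 0.03 (SE 0.21, adjusted p 0.994). Vsig4 and Timd4 had 0.21 and 0.43 with overlap, and Cd163 had -0.38, below 0 alone among the members tested in liver. The summed level of the 5 markers was 68.2, 102 and 128 CPM in CO and 157, 98.7 and 96.5 in HS.

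The ITAM adaptors and receptors and the pattern recognition genes were all above 0 in liver. Trem2 (chr17:48346401-48354147) was low, at 1.03, 0.489 and 1.03 CPM in CO and 1.12, 1.12 and 1.66 in HS, from 6 to 21 counts a library. The HS mice were above the CO mice by little, with a log2 fold change of 0.60 (SE 0.42, adjusted p 0.936). Tyrobp gave 6.13, 15.2 and 15.9 CPM in CO and 24.9, 11.2 and 10.9 in HS, with a log2 fold change of 0.34 and overlapping groups. The 3 Fc receptor genes overlapped, at 0.12 for Fcer1g, 0.35 for Fcgr1 and 0.54 for Fcgr3. Tlr2 (chr3:83836272-83841767), which senses bacterial lipoproteins, gave 0.904, 2.04 and 1.21 CPM in CO and 4.54, 2.93 and 1.74 in HS. HS replicate 3 lay under the highest CO mouse, and the log2 fold change was 1.16 (SE 0.44, adjusted p 0.799). Cd14 had a log2 fold change of 0.96, Clec7a 0.30 and Tlr4 0.16, all with overlap.

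All 6 lysosomal and effector genes were above 0 in liver, and 2 separated the groups. Cd68 (chr11:69664213-69666153), whose protein the study stained in liver, gave 4.65, 3.59 and 5.87 CPM in CO and 7.07, 6.83 and 5.99 in HS. The lowest HS mouse was barely above the highest CO mouse, with a log2 fold change of 0.50 (SE 0.24, adjusted p 0.882). Mmp12 (chr9:7344381-7369499), the macrophage elastase, gave 0.452, 0.571 and 0.932 CPM in CO and 1.71, 1.18 and 0.946 in HS, from 7 to 23 counts a library. The gap was again narrow, with a log2 fold change of 1.00 (SE 0.44, adjusted p 0.852), and exons of Mmp12 overlap Mmp1b on the opposite strand. Lyz2 gave 33.7, 70.7 and 83.1 CPM in CO and 177, 58.5 and 65.9 in HS. HS replicate 1 stood far above the other libraries, and the log2 fold change was 0.69 (SE 0.46, adjusted p 0.936). Tspo gave 71.1, 67.8 and 57.2 CPM in CO and 62.6, 62.8 and 75.8 in HS, interleaved, with a log2 fold change of 0.04 (SE 0.17, adjusted p 0.992). Lgals3 had 0.38 and Ctss 0.16.

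**Figure D4:**
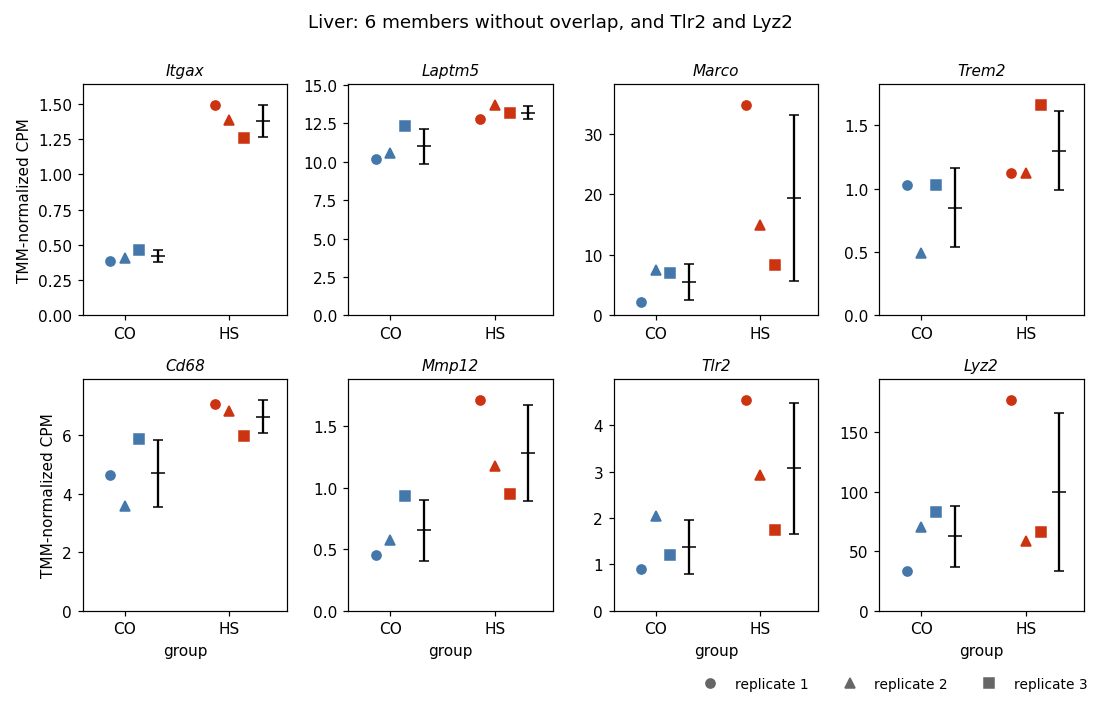
TMM-normalized CPM of the 6 members whose HS and CO livers did not overlap, and of Tlr2 and Lyz2, with a symbol for each replicate and the mean ± SD of 3 mice in black. HS replicate 1 (circle) is the highest library for Itgax, Marco, Cd68, Mmp12, Tlr2 and Lyz2, and the HS livers lie close together for Itgax and Laptm5.

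Genes outside the members were examined in liver as well. Of 11 further genes known from microglia and tested, 0 passed the adjusted threshold and 5 were higher in all HS livers, against the 5.38% of all genes given above. Among these 5 were the fructose transporter gene Slc2a5 at a log2 fold change of 0.69 (adjusted p 0.846) and the fractalkine receptor gene Cx3cr1 at 0.83 (adjusted p 0.875). Cx3cr1 had 6 to 15 counts in the CO livers, and had enough counts to test only because of the HS livers. The median of the 11 was 0.46. Of 9 tested genes known from disease-associated microglia, 0 passed and 2 were higher in all HS livers, Cd9 at 0.42 and Ctsl at 0.31, with a median of 0.31. Of 9 further Kupffer cell genes, among them Cd5l and Folr2, 0 separated the groups, with a median of 0.29. Of 24 tested partners of the members, 0 passed the adjusted threshold, and the median was 0.29. Without overlap 0 were lower and 3 were higher, Il34 at 0.67, Cyba at 0.61 and Lyn at 0.19. T and NK cell genes summed to 2.84 to 5.79 CPM in CO and 7.53 to 14.6 in HS. Of 6 tested, 0 passed the adjusted threshold and 2 were higher in all HS livers, Cd8a at a log2 fold change of 2.16 (adjusted p 0.449) and Cd3e at 1.72 (adjusted p 0.465), while Cd4, Cd3d, Cd3g and Nkg7 overlapped. In the CO livers Cd8a had 2 to 7 counts and Cd3e 3 to 6, so both had enough counts to test only because of the HS livers. Of the 8 T and NK cell genes present, none was at 0 in every liver library. Monocyte genes summed to 11.0 to 22.5 CPM in CO and 18.4 to 32.6 in HS. The part of such cells in the members' values was not tested.

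**Figure D5:**
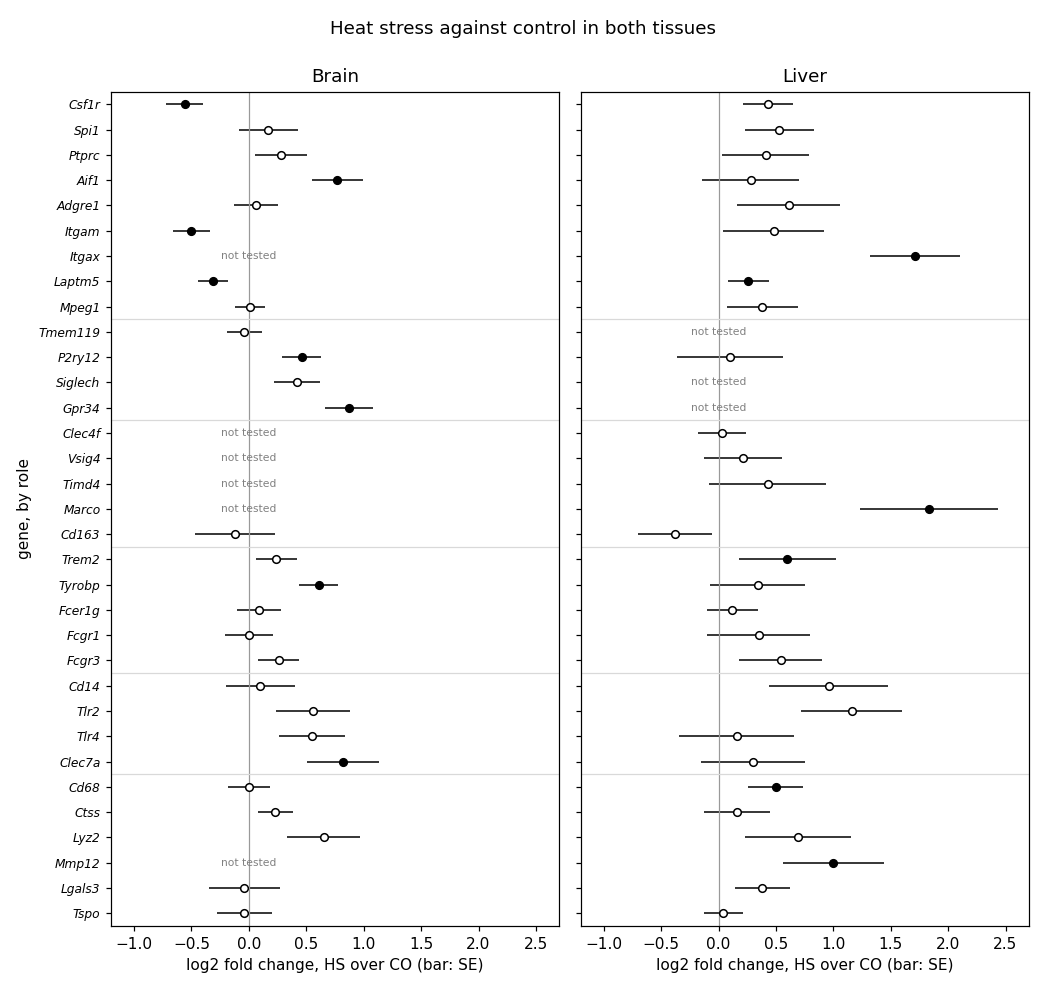
Log2 fold change of HS over CO for each member in brain and liver, with its standard error, ordered by role; filled points are tested members whose 3 HS and 3 CO values do not overlap. In brain the lineage genes lie on both sides of 0, from -0.56 for Csf1r to 0.77 for Aif1, and in liver 29 of 30 members lie above 0.

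Finally, the effect of heat stress in liver was compared with that in brain by an interaction test over all 12 libraries. Of the 24 members tested in both tissues, 0 had an adjusted p under 0.05 (smallest 0.516) in edgeR's quasi-likelihood test, Benjamini-Hochberg adjusted, and 0 by DESeq2. Among all 15824 genes, edgeR called 1 (0.00632%) and DESeq2 0.272%. The other 9 members were too low in one tissue for the difference to be read. Of the 24, 3 had an unadjusted p under 0.05, all with the liver effect above the brain effect. Of all 15824 genes 9.64% did, 590 with the liver effect above the brain effect and 935 with it below. The 15824 include genes too low to test in one tissue, while the 24 do not. The difference in log2 fold change was 0.98 for Csf1r (SE 0.29), 0.98 for Itgam (SE 0.41) and 0.57 for Laptm5 (SE 0.21). Csf1r, Itgam and Laptm5 were lower in all HS brains, while in liver Csf1r gave 18.1, 18.3 and 25.3 CPM in CO and 34.9, 24.0 and 24.0 in HS, and Itgam gave 0.710, 0.815 and 1.21 in CO and 1.71, 1.32 and 0.710 in HS, both with overlap.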

How the data were processed

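The deposited values are raw counts of reads per gene symbol, without normalization, 1 column per library. The labels and methods name FastQC 0.11.9, Trimmomatic 0.39, HISAT2 2.2.1, mm10 and featureCounts of Subread 2.0.1, and a second passage of the methods names Tophat2 and HTSeq. Whether counting used strand, and how it treated reads shared by genes, is not given in the sources used here. The deposited tables of the authors' own comparisons were not used, and 0 columns with values of a single library were left unused. The 33 members, their roles and the lists of other genes were chosen with earlier results of these data known.

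All genes were tested in R 4.3.3 with edgeR 4.0.16: filterByExpr (minimum count 10, minimum total 15), TMM, the robust quasi-likelihood test without a block, and Benjamini-Hochberg adjustment over all genes tested. A call is an adjusted p under 0.05, and for control brain against control liver also a log2 fold change past 1. Standard errors (SE) were taken from the fold change and its F statistic. Groups were also described by whether 3 HS and 3 CO values overlap, since an exact permutation test of 3 against 3 cannot go below 0.1. The most values are given for members called in any comparison or without overlap in a tissue, the 3 with the largest fold change in each tissue, and Cd68, Tspo and Mmp12, and the other members are given by fewer values. From each other list, at most 4 genes without overlap are named, beside examples of its members. Fits were tested on simulated counts, of which no value is given here. Replicates are separate mice by the study's methods, and no 2 libraries of the same group had counts that agreed within sampling noise. Same-numbered libraries of control brain and control liver correlated at 0.29, 0.25 and 0.11, and those of unlike number at -0.31 to 0.07. These values are low, and no label says that a number stands for a mouse, so pairing is not shown. With the replicate number as a block, the count of members called stayed as it was. Same-numbered libraries of HS brain and HS liver gave 0.04, -0.17 and -0.01, which shows no pairing either.

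TPM used the longest protein-coding transcript in GENCODE M21 (GRCm38, the same build as mm10), and a length and GC content were found for 24366 of the 25239 genes. Positions of genes come from the same annotation. Alternatives were DESeq2 1.42.0, RLE normalization, no filter or a stricter one (CPM of 1 in 3 libraries), the replicate number as a block, each library left out, a single fit of all libraries, a suffix in 3 liver column names, of unknown meaning, as a covariate, the muscle libraries left out and, added after seeing the data, a correction of each library for GC content and transcript length.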

Additional observations from a re-analysis of the deposited data

Results flagged for a closer look

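Laptm5 was lower in all 3 HS brains than in all 3 CO brains and higher in all 3 HS livers than in all 3 CO livers. The log2 fold change was -0.31 (SE 0.13) in brain and 0.26 (SE 0.18) in liver. The interaction test gave a difference of 0.57 (SE 0.21, unadjusted p 0.0186), which did not pass the adjustment over all genes (adjusted p 0.516, edgeR's quasi-likelihood test, Benjamini-Hochberg adjusted). After correction for transcript length and GC content the liver value was 0.13 and the brain value -0.22, and Itgam in brain was -0.38 against -0.50. The brain libraries then overlapped for Laptm5, Itgam and Csf1r.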

How the results depend on the processing

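By edgeR, 0 members passed the adjusted threshold in brain or liver under any alternative run, and DESeq2 called 4 in brain. Members at an unadjusted p under 0.05 in brain numbered 5 with all 12 libraries in one fit, against 9.13% of all genes. After the length and GC correction there were 4, against 11.4%, and 0 members were lower without overlap, against 7.52%. With a library left out, the number at an unadjusted p under 0.05 ranged from 5 to 13, against 11% to 26.9% of all genes. Members higher without overlap in brain ranged from 4 to 11 with a library left out, where groups separate more easily and 15% to 23.4% of all genes did so. In liver, 2 members had an unadjusted p under 0.05 with no filter, with the replicate block and without both muscle libraries. The shares of all genes were then 4.52%, 2.61% and 10.4%. With a library left out 1 to 5 members did, against 3.27% to 12.9% of all genes. Members higher without overlap in liver numbered 2 after the length and GC correction, against 6.09% of all genes. They ranged from 4 to 10 with a library left out, against 7.85% to 15.8% of all genes. Members lower without overlap in liver numbered 1 without both muscle libraries and 1 after that correction, against 21.3% and 9.01% of all genes. They ranged from 0 to 1 with a library left out, against 8.39% to 16.2% of all genes. The median of the members ranged from 0.05 to 0.26 in brain and from 0.00 to 0.60 in liver with a library left out. Cd68 in brain was -0.01 with no filter, -0.00 in one fit of all libraries and -0.17 after the correction, and ranged from -0.11 to 0.10. Tspo in brain ranged from -0.33 to 0.10, and in liver it was -0.00 with the suffix as a covariate and -0.11 after the correction, and ranged from -0.07 to 0.09. The tested members without overlap in brain or liver, and Tlr2 in liver, kept their direction in that tissue under every alternative run. Of the members tested in liver, 15 were above 0 without HS replicate 1 and 22 without CO replicate 1, against 29 with all libraries. Same-numbered HS and CO libraries correlated at -0.30, 0.23 and -0.21 in brain and -0.67, -0.57 and -0.03 in liver, so the numbers do not pair the mice. With the replicate block, 0 members passed in either tissue and 19 passed between the control tissues. At 5 to 40 counts a library, as for Itgax, Trem2, Mmp12 and Clec7a, counting error alone is wide. The causes of these shifts were not tested.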
